A study of Mus musculus and Meriones unguiculatus with 4 samples.

Results

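The 31 genes described here encode cytoplasmic ribosomal proteins, and their mRNAs were measured by RNA sequencing of enamel knots cut from gerbil and mouse tooth germs. They were chosen by symbol: Rpl or Rps followed by digits and at most 1 of the letters a, l or x, or Rpsa, Rplp0, Rplp1 or Rplp2, with exactly 1 row in the gerbil table and 1 in the mouse table. Of the 13324 genes matched between the tables, 31 fitted, 22 of the large and 9 of the small ribosomal subunit. They hold 27 of a textbook set of 79 ribosomal protein genes, plus 4 paralogs, Rpl3l, Rpl10l, Rpl39l and Rps27l. The other genes of the set fell out because of the tables: 21 pattern symbols lay on more than 1 of the mouse rows, and only 41 pattern symbols were used in the gerbil table, against 81 in the mouse table.

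The gerbil samples (Meriones unguiculatus, wild type, embryonic day 15) and the mouse samples (wild type, embryonic day 13) were 2 each. Per the labels' protocols, mandibular tooth germs were fixed in paraformaldehyde and cryosectioned, and laser microdissection gave the tissue, with libraries from a SMARTer mRNA-Seq kit. The libraries are called by their column endings, E23 and E21 for gerbil and SEK and PEK for mouse. The labels leave these endings unexplained, and E23 and E21 do not match the labelled embryonic day 15; should they stand for separate stages or parts of the tooth, no species has replicates here, and each SD and SE covers that contrast too. The number of animals behind a sample is unstated, so the spread may also be technical.

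A ribosome is built from ribosomal RNA and ribosomal proteins, with each core protein present in 1 copy, so cells make the proteins of both subunits in matched amounts. The mRNAs of these proteins are short and among the most abundant of growing cells, and in vertebrates they typically start with a stretch of pyrimidines through which mTOR signalling controls their translation. Enamel knots are clusters of non-dividing epithelial cells that signal to the growing epithelium and mesenchyme around them during tooth shaping.

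Each library was rescaled to a total of 1000000 over the matched genes, and a gene's value on this scale is its level. A level is per length, since it comes from TPM (gerbil) or FPKM (mouse). Differences were taken as gerbil minus mouse on the log2(level + 1) scale, which understates the change of low genes. As the tables were normalized separately, no significance test was run across them, and 2 against 2 libraries could not give an exact two-sided permutation p below 0.333. A call of higher in gerbil means that the lower gerbil value was at least 2-fold above the higher mouse value, and a call of higher in mouse means the reverse.

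Library depth was not analysed here. The signalling gene Shh, which marks the knot, had levels of 1186 in E23 and 963 in E21, against 609 in SEK and 946 in PEK. Of the 8 measured knot markers, only Shh had a higher mean level in gerbil than in mouse. On these levels none of the 8 was called higher in gerbil and 3 were called higher in mouse. Of all genes, 29.7% and 11.9% were called so. The 5 epithelial markers were present, with summed levels of 7092 in E23 and 8374 in E21, against 7099 in SEK and 5087 in PEK. Fewer cells of a type and less RNA per cell cannot be told apart in such bulk samples.

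The 31 ribosomal protein genes held a larger share of the summed level over matched genes in the gerbil libraries than in the mouse libraries. They took 10.4% of the summed level in E23 and 8.04% in E21, against 4.78% in SEK and 7.18% in PEK. Most of the deposited gerbil total lay outside the matched genes, and of that total the members held 1.15% on average. The means over matched genes were 9.22% ± 1.67 in gerbil libraries and 5.98% ± 1.69 in mouse libraries (SD, n = 2 each). For these 31 members the groups did not overlap, although E21 lay close to PEK. With the 24 further genes described below added, PEK lay above E21 by summed level, so the groups overlapped. The lack of overlap thus depends on which genes the symbol rule kept. Small-subunit genes stood to large-subunit genes, by summed level, at 0.538 in E23 and 0.498 in E21, against 0.459 in SEK and 0.374 in PEK. The median tested member ranked 22nd among all matched genes in E23 and 26th in E21, against 90th in SEK and 47th in PEK. Of the 31 members, 27 stood among the 100 highest genes in E23 and 27 in E21, against 17 in SEK and 26 in PEK.

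The 27 textbook members kept by the symbol rule were closer to each other in level in gerbil than in mouse. In E23 the 27 of them ran from 1867 (Rpl36) to 6613 (Rpl32), a 3.54-fold range, and in E21 from 1759 (Rpl30) to 4865 (Rps23), a 2.77-fold range. In SEK they ran from 569 (Rpsa) to 4692 (Rpl32), an 8.24-fold range, and in PEK from 796 (Rpl5) to 8940 (Rpl32), an 11.2-fold range. The order of the members was much alike within a species and little alike across species. Over the 27 genes, Spearman's rho of the levels was 0.94 between E23 and E21 and 0.89 between SEK and PEK, but 0.16 to 0.25 between a gerbil and a mouse library. Over all 10161 tested genes the cross-species values were 0.63 to 0.70. These are correlations across genes, which are not independent, and the members share high level and short length.

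**Figure D1:**
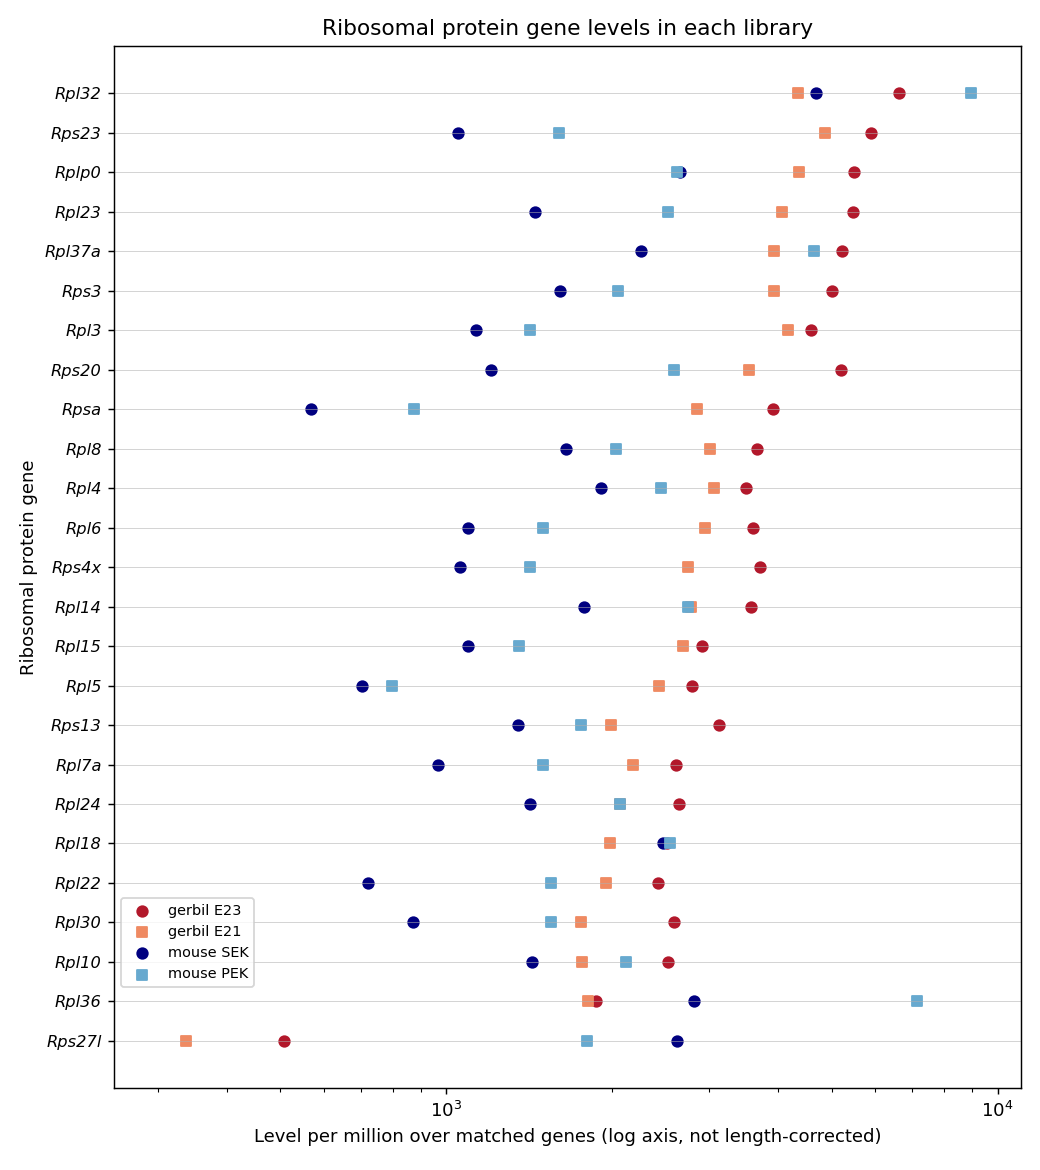
Level, scaled to a total of 1000000 over matched genes (log axis, not length-corrected) of 25 ribosomal protein genes detected in all 4 libraries, ordered from top to bottom by mean gerbil level. Gerbil points are red (E23) and orange (E21) and mouse points dark blue (SEK) and light blue (PEK); most gerbil points lie to the right of the mouse points of the same gene, while Rps27l at the bottom lies far to the left in gerbil.

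How large the species difference appears depends on how transcript length is treated. Among all genes, the uncorrected difference ran with length: with the genes split by length into 10 groups of like size, its median was -1.16 in the shortest group and 2.06 in the longest. Ribosomal protein genes are short, with a median exon length of 1059 bases against 3381 over all tested genes, and 21 of the 29 tested members fell in the shortest group. The length-corrected difference therefore sets each member against genes of like length, by subtracting a running median along exon length in each library. The source of this trend was not tested.

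Against genes of like length, the family was higher in gerbil. The median corrected difference over the 29 tested members was 1.64, beside -0.02 over all genes, and 26 of 29 were above 0. Of the 29, 16 were called higher in gerbil, where 13.4% of all genes were, and none was called higher in mouse, where 14.7% of all genes were. Taking length from the principal transcript gave a median of 1.74 and 18 calls in gerbil (background 12.7%) and none in mouse (background 14%). Taking coding length gave 1.27 and 11 calls in gerbil (background 16.3%) and none in mouse (background also 16.3%).

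Against all genes without a length correction, the family stood little above the rest. The median difference was 0.88, beside 0.62 over all genes, and 4 of 29 members were called higher in gerbil where 29.7% of all genes were, a smaller share than the background. Within the shortest length group alone, the uncorrected median was 0.70 for the 21 members, beside -1.16 for all genes there. On the uncorrected levels, both gerbil libraries lay above both mouse libraries for 19 of 29 members and below both for 3. The same counts over all genes were not made, so these have no background beside them. The uncorrected difference was above 0 for 23 of 29 members and for 63.9% of all genes.

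The choice of libraries mattered as well. With PEK left out, 25 members were called higher in gerbil (background 19.3%) and 1 higher in mouse (20.4%), with a median of 2.06. With SEK left out, 16 were called higher in gerbil (17.5%) and none higher in mouse (19.6%), with a median of 1.28. Without E21 the calls were 20 in gerbil (17.4%) and 0 in mouse (18.8%), and without E23 16 in gerbil (16.6%) and 2, Rpl18 and Rps27l, in mouse (18.6%). With no filter on low values, 10 of 31 were called higher in gerbil (12.1%) and 1 higher in mouse (13.3%), and with a pseudocount of 0.1 the counts were 17 (14.8%) and 1 (15.9%). On the values as deposited, with neither a common total nor a length correction, none was called higher in gerbil (3.8%) and 10 were called higher in mouse (36.5%). Leaving out the paralog Rpl39l, which is listed at 0 in both gerbil libraries, gave a corrected median of 1.73 over 28 members.

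**Figure D2:**
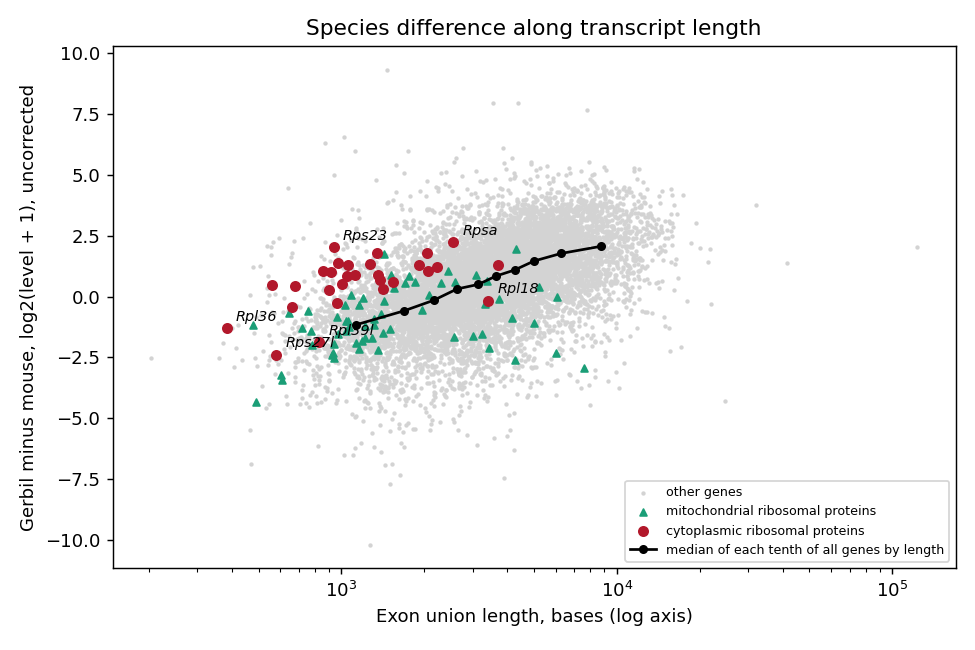
Uncorrected difference (gerbil minus mouse, log2(level + 1)) against exon union length (bases, log axis) for each tested gene, with cytoplasmic ribosomal protein genes in red, mitochondrial ones as green triangles and other genes in grey. The black line joins the medians of all genes in 10 groups by length, which run from -1.16 to 2.06; most red points lie above the line at their length, with Rpl18, Rps27l and Rpl39l below it.

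How many of all genes were called higher in gerbil under every length treatment was not counted. Without correction alone, 29.7% of all genes were called so. Of the 29 tested members, 4 were called higher in gerbil under every treatment, with and without correction: Rps23, Rpsa, Rpl3 and Rpl5. In the mouse table's GRCm38 coordinates they lie at separate loci, Rps23 on chromosome 13 (90923131 to 90924942, plus strand), Rpsa on chromosome 9 (120127746 to 120132369, plus strand), Rpl3 on chromosome 15 (80077794 to 80091868, minus strand) and Rpl5 on chromosome 5 (107900502 to 107909005, plus strand). Rps23, a protein of the small subunit's decoding centre, had levels of 5894 in E23 and 4865 in E21, against 1051 in SEK and 1599 in PEK. Its lowest gerbil value was above its highest mouse value by a wide margin, with means of 5380 ± 728 for the gerbil libraries and 1325 ± 388 for the mouse libraries (SD, n = 2 each). The difference was 3.28 ± 0.47 (SE) after length correction, the largest of the family, and 2.05 ± 0.33 without it.

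Rpsa encodes a small-subunit protein that was first described as a laminin receptor precursor, and its human gene is mutated in isolated congenital asplenia. It had levels of 3914 in E23 and 2850 in E21, against 569 in SEK and 874 in PEK, where it was among the lowest of the textbook members. The difference was 1.99 ± 0.41 (SE) with and 2.24 ± 0.38 without length correction.

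Rpl3, a large-subunit protein that reaches towards the peptidyl transferase centre, had levels of 4586 in E23 and 4173 in E21, against 1132 in SEK and 1419 in PEK. Its gerbil and mouse values were far apart, and its difference was 2.72 ± 0.36 (SE) with and 1.79 ± 0.18 without correction. Rpl5 binds 5S ribosomal RNA together with Rpl11, in a particle that can also bind and inhibit Mdm2. It had levels of 2795 in E23 and 2427 in E21, against 705 in SEK and 796 in PEK. Both species were tight for this gene, and the difference was 1.98 ± 0.21 (SE) with and 1.80 ± 0.13 without correction.

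A further 4 genes, Rpl23, Rpl30, Rpl6 and Rps4x, were called higher in gerbil with each of the 3 lengths but not without correction. The share of all genes called in this way was not counted either. Rps4x, the X-linked form of a small-subunit protein, had levels of 3702 in E23 and 2742 in E21, against 1059 in SEK and 1421 in PEK, and a corrected difference of 2.56 ± 0.39 (SE). Rpl23, which is also known to bind Mdm2, had levels of 5457 in E23 and 4064 in E21, against 1447 in SEK and 2522 in PEK, with a corrected difference of 2.41 ± 0.58 (SE). Rpl6 followed with 2.40 ± 0.43, and both gerbil libraries were above both mouse libraries for these genes on the uncorrected levels as well.

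Rplp0, Rpl7a and Rpl8 were called with exon length and with principal transcript length only. Rplp0 is the base of the acidic stalk that recruits translation factors. It had levels of 5494 in E23 and 4370 in E21, against 2656 in SEK and 2623 in PEK, nearly the same in both mouse libraries. Its difference was 1.83 ± 0.23 (SE) with and 0.89 ± 0.16 without correction. Rps3, which sits at the mRNA entry channel, had levels of 5008 in E23 and 3927 in E21, against 1606 in SEK and 2049 in PEK. Its difference was 1.60 ± 0.33 (SE) with exon length and 1.42 ± 0.33 with coding length, where it was no longer called.

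Rpl10, which joins the large subunit late in its assembly, and Rpl22, which mice can live without and which is best known from T-cell development, were not called with exon length. Rpl10 had levels of 2524 in E23 and 1765 in E21, against 1428 in SEK and 2117 in PEK, and the species overlapped. Rpl22 had levels of 2425 in E23 and 1947 in E21, against 720 in SEK and 1551 in PEK, and was called with coding length only, at 2.06 ± 0.72 (SE). Rpl14 and Rpl24 were called with exon and principal transcript length, at 1.64 ± 0.48 and 1.98 ± 0.46 (SE) with exon length. Rps13 was called with principal transcript length only, at 2.26, and Rpl15 with principal transcript and coding length. Rpl4 was called under none of the 4 treatments, with a difference of 1.35 ± 0.38 (SE) with exon length.

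**Figure D3:**
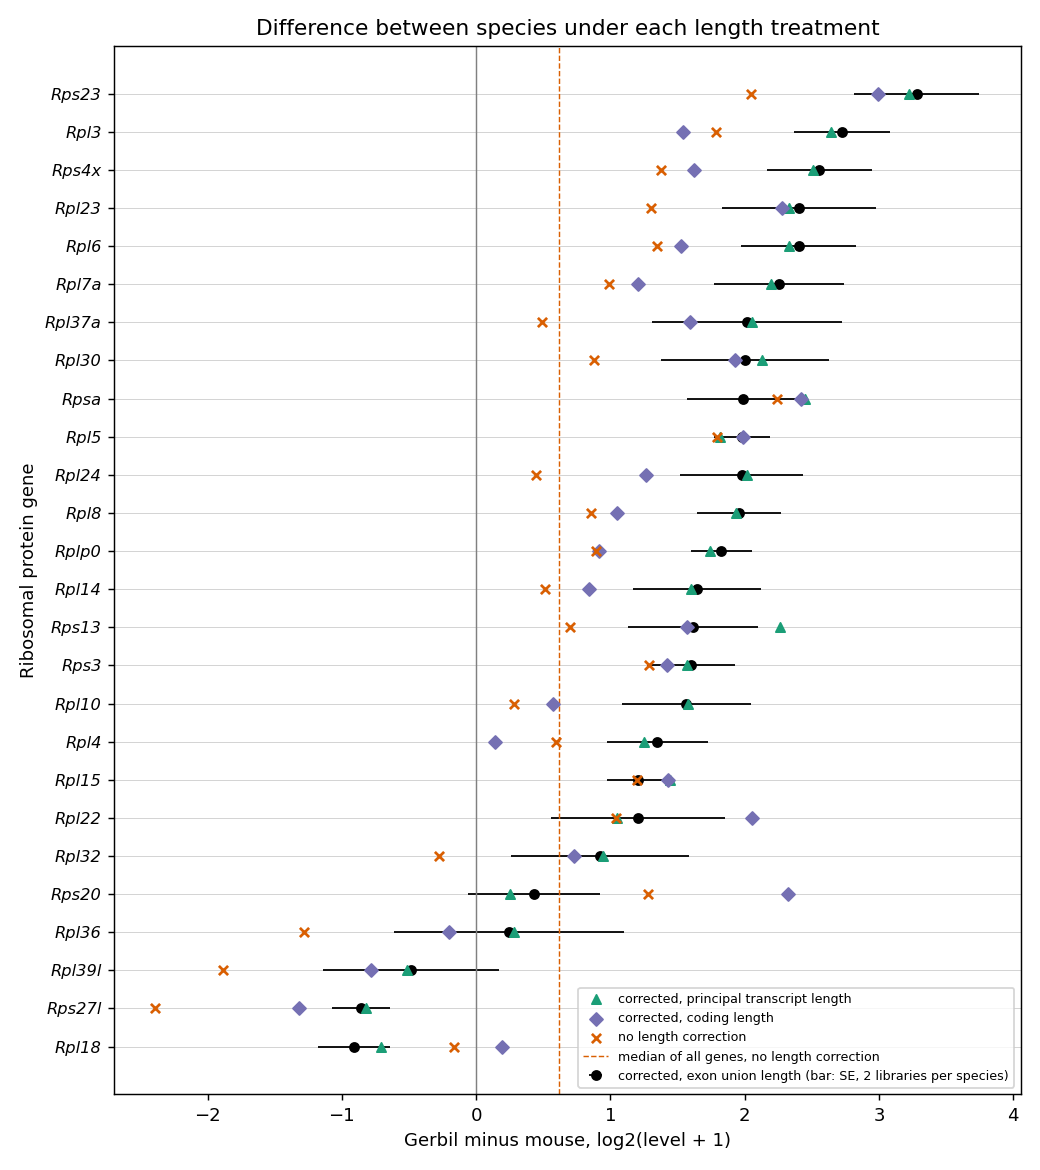
Difference between species (gerbil minus mouse, log2(level + 1)) of 26 tested members under 4 treatments of transcript length, ordered by the value corrected with exon union length (black points, bars are the SE of 2 libraries per species). Without correction (orange crosses) the values of most genes shift to the left, towards the median of all genes at 0.62 (dashed line); Rps23, Rpl3, Rpl5 and Rpsa stay high under each treatment and Rps27l stays low.

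To see which members departed from the family, the median of the members was subtracted from each library. After this, 4 members differed by at least 2-fold between the nearest libraries of the species: Rps23 higher in gerbil, and Rps27l, Rpl18 and Rpl39l higher in mouse. Rpl39l was at 0 in both gerbil libraries and passed the level filter through mouse alone. Its difference was -0.49 before centring and -2.18 after it, so subtracting the family median from a floor value gave its place here. The same count over all genes was not made. Rps23 and Rps27l were called in this way under all 4 length treatments.

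Rps27l, a paralog of Rps27 known as a transcriptional target of p53, departed in the other direction. It had levels of 509 in E23 and 337 in E21, against 2618 in SEK and 1800 in PEK, so both gerbil libraries lay far below both mouse libraries. Its difference was -2.39 ± 0.40 (SE) without length correction, where it was called higher in mouse together with Rpl39l (background 11.9%). With exon-length correction it was -0.86 ± 0.22 and not called against genes of like length. Relative to the family median it was -2.56 ± 0.41 with and -3.27 ± 0.54 without correction.

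Rps27, the paralog outside the symbol rule's match, had levels of 2582 in E23 and 1773 in E21, against 2482 in SEK and 5396 in PEK, and the species overlapped. Its gerbil row was found by its description. The Rps27l-to-Rps27 ratio of levels was 0.197 in E23 and 0.190 in E21, against 1.05 in SEK and 0.334 in PEK. The mouse coding sequences of these paralogs are shown because reads of near-identical genes could be credited to the wrong one. They are read from the GENCODE M21 annotation of GRCm38 (Rps27l on chromosome 9, positions 66946086 to 66949516, plus strand; Rps27 on chromosome 3, positions 90212522 to 90213651, minus strand). Both are given 5′ to 3′ without the stop codon, and capitals mark the bases that differ.
Rps27l: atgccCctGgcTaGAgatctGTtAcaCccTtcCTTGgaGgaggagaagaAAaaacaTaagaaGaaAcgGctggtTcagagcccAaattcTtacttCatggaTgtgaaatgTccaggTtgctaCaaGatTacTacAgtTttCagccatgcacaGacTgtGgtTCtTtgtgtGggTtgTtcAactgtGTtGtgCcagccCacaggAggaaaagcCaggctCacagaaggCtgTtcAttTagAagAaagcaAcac
Rps27: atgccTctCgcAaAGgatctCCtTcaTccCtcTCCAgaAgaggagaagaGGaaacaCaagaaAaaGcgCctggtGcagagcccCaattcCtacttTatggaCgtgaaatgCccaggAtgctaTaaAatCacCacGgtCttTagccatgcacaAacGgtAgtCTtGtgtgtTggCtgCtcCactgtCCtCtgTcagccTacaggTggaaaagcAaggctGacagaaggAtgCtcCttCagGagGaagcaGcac
Over the 252 bases 192 are identical (76.2%), and the longest identical stretch is 11 bases. The treatment of reads that fit several genes is unstated, and the gerbil coding sequences were not analysed here.

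Other p53 targets did not share 1 direction. Cdkn1a, a cell cycle inhibitor that marks the enamel knot, had levels of 37.1 in E23 and 60.01 in E21, against 1019 in SEK and 1565 in PEK. Mdm2, which encodes the ubiquitin ligase of p53, had levels of 120 in E23 and 118 in E21, against 32.4 in SEK and 62.8 in PEK. Trp53 itself overlapped between the species, with 216 in E23 and 334 in E21, against 294 in SEK and 459 in PEK. These 3 genes were chosen after the value of Rps27l had been seen.

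Rpl18, Rps20 and Rpsa have exon unions far longer than their coding sequences, which moves their corrected values. The exon union of Rpl18 is 3413 bases beside a coding length of 564 bases, and that of Rps20 is 3706 beside 357. Rpl18 had levels of 2510 in E23 and 1983 in E21, against 2467 in SEK and 2544 in PEK. These values overlapped, and the difference was -0.91 ± 0.27 (SE) with exon length but 0.20 ± 0.17 with coding length. Rps20 had levels of 5202 in E23 and 3546 in E21, against 1203 in SEK and 2588 in PEK, with a difference of 0.43 ± 0.49 (SE) with exon length and 2.33 ± 0.74 with coding length. The place of both genes in the family is thus not settled by these data.

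The shortest member, Rpl36, differed most between the mouse libraries of the textbook members. It had levels of 1867 in E23 and 1808 in E21, against 2810 in SEK and 7129 in PEK, with both mouse values above both gerbil values. Its difference was -1.28 ± 0.67 (SE) without and 0.25 ± 0.86 with length correction, so its direction turned with the treatment. Rpl32, the most abundant member in E23 and in both mouse libraries, had levels of 6613 in E23 and 4341 in E21, against 4692 in SEK and 8940 in PEK, and overlapped between species. Rpl37a, at 5227 in E23 and 3937 in E21, against 2257 in SEK and 4635 in PEK, was called only with exon or principal transcript length.

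The remaining paralogs were near or at 0. Rpl10l, known from the testis, where it stands in for X-linked Rpl10, was listed at 0 in all 4 libraries. Rpl3l, known from heart and skeletal muscle, had a level of 0 in E23 and 0.98 in E21, against 0.81 in SEK and 0 in PEK, and neither passed the minimum mean level of 1. Rpl39l, also known from male germ cells, was listed at 0 in both gerbil libraries, against 5.53 in SEK and 1.09 in PEK.

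Within each species, nearly all members differed between the libraries in the same direction. In gerbil, 28 of the 29 tested members were higher in E23 than in E21 and none was lower, where 43.5% of all genes were higher and 54.6% lower. The median fold was 1.28, beside 0.97 over all genes. Rps13 had the largest difference, E23 minus E21, at 0.65 on the log2 scale, and Rpl36 the smallest of the textbook members, at 0.05. Rpl39l was at 0 in both. With exon-length correction 27 members were higher and 2 lower in E23, with a median difference of 0.26, beside -0.01 over all genes, and on the values as deposited 25 were higher and 3 lower. Each is 1 library against 1, so no replicate check exists for these differences.

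In mouse, 26 of the 29 members were lower in SEK than in PEK, where 60.7% of all genes were. The median difference, SEK minus PEK, was -0.45 on the log2 scale, beside -0.21 over all genes, and 4 members were at least 2-fold lower, where 17.1% of all genes were. Rpl36 was the furthest, at -1.34. Rps27l was 0.54 higher in SEK, Rplp0 was level at 0.02, and Rpl39l was higher at a very low level. With the length correction the median was -0.76, beside -0.03 over all genes.

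The libraries also differed in markers of other cells. The 3 endothelial markers (Pecam1, Cdh5 and Kdr) were all higher in E23 than in E21, with summed levels of 84.8 in E23 and 1.13 in E21, against 8.50 in SEK and 3.88 in PEK. Of 5 mesenchymal markers, 4 were higher in E23 than in E21, with sums of 2166 in E23 and 1340 in E21, against 474 in SEK and 424 in PEK. Both sums were highest in E23, which had the largest ribosomal protein share. Between the mouse libraries both sums were higher in SEK, which had the smaller share. The mesenchymal markers were split there, with 3 higher and 2 lower in SEK than in PEK. Col1a1 was at 204 in SEK and 48.3 in PEK, while Vim was at 172 in SEK and 303 in PEK.

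The 3 muscle markers were all higher in SEK than in PEK, with sums of 7.90 in E23 and 0.829 in E21, against 329 in SEK and 97.9 in PEK, and Mylpf was listed at 0 in E21. The 8 measured knot markers were all lower in SEK than in PEK, with sums of 1554 in E23 and 1464 in E21, against 2625 in SEK and 4085 in PEK. Shh made up most of both gerbil sums. Of the blood markers only Ptprc was matched, at 2.805 in E23 and 0.53 in E21, against 0.30 in SEK and 0.13 in PEK. The part of these cells in the ribosomal protein differences was not tested.

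**Figure D4:**
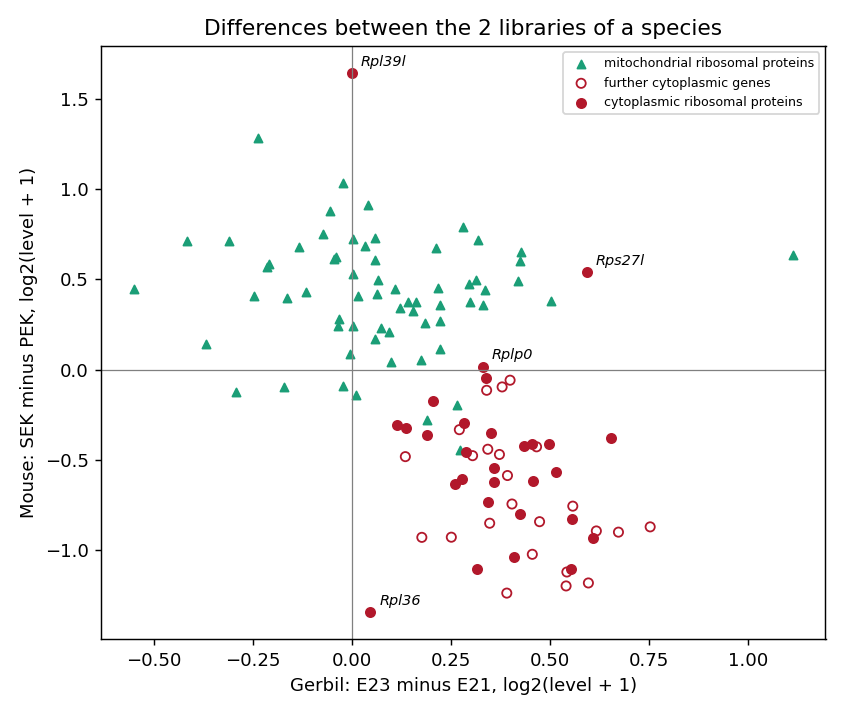
Difference between the 2 libraries of each species for every cytoplasmic member (filled red), the 24 further cytoplasmic genes (open red) and the mitochondrial ribosomal protein genes (green triangles). The x axis is gerbil E23 minus E21 and the y axis mouse SEK minus PEK, both in log2(level + 1) without length correction; the cytoplasmic genes gather at the lower right, apart from Rps27l, Rplp0 and Rpl39l, and most mitochondrial ones lie above 0 on the y axis.

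Another 24 genes of the textbook set, which the symbol rule missed, were on 1 row in each table and had an exon length. Of these, 23 were found by the gene description in the gerbil table. Rps3a was also on 1 row in each table but had no exon length, so it is not among the 24. The 24 were taken up after the tables had been seen. All 24 were higher in E23 than in E21 (median difference 0.40) and all 24 were lower in SEK than in PEK (median -0.80). Their median species difference was 1.04 with exon-length correction and 0.06 without, beside 0.62 over all genes without correction. With correction, 9 were called higher in gerbil (background 13.4%) and 1 higher in mouse (14.7%). Without it, 3 were called higher in gerbil, below the background of 29.7%, and 2, Rps24 and Rps14, higher in mouse (11.9%). Rpl27a, a large-subunit protein, had levels of 6939 in E23 and 4588 in E21, against 700 in SEK and 1589 in PEK. Rps3a, left out of the 24 and their counts, was lower still in mouse. It had levels of 5156 in E23 and 3618 in E21, against 59.987 in SEK and 102.2 in PEK. Rps24 went the other way and was called higher in mouse, with 62.6 in E23 and 45.0 in E21, against 1414 in SEK and 1901 in PEK. The gene description matched 1 row for each, but other gerbil copies of such genes may lie on rows without a name, so low gerbil values are uncertain. In mouse, 21 pattern symbols lay on more than 1 row, and the treatment of reads that fit several genes is unstated. Low mouse values, such as those of Rpl27a and Rps3a, are therefore uncertain too.

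Mitochondrial ribosomal protein genes, which encode the ribosome of the organelle and are also mostly short, had a median species difference of the opposite sign. Of 64 tested, 4 were called higher in gerbil (background 13.4%) and 15 higher in mouse (14.7%) with length correction, with a median difference of -0.23. Without correction, 2 were called higher in gerbil (29.7%) and 27 higher in mouse (11.9%), and the median was -1.06. They took 0.776% of the summed level in E23 and 0.738% in E21, against 2.06% in SEK and 1.54% in PEK. The ratio of cytoplasmic to mitochondrial summed level was 13.4 in E23 and 10.9 in E21, against 2.32 in SEK and 4.66 in PEK. The mouse libraries differed in the opposite sense from the cytoplasmic genes, as 57 of 64 mitochondrial genes were higher in SEK than in PEK, where 39% of all genes were. Between the gerbil libraries 42 of 64 were higher in E23. With exon-length correction, Mrps23 had the widest gap between the species' nearest libraries in favour of gerbil, and its uncorrected levels were 262 in E23 and 251 in E21, against 88.5 in SEK and 65.8 in PEK. Mrpl17 had the widest corrected gap in favour of mouse, with uncorrected levels of 98.2 in E23 and 94.2 in E21, against 960 in SEK and 579 in PEK. Without correction the largest differences were those of Mrpl1 in favour of gerbil (1.97) and Mrpl52 in favour of mouse (-4.33).

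Counts for the lists of translation factors and ribosome assembly are read against the same background, 13.4% of all genes called higher in gerbil and 14.7% higher in mouse with exon-length correction. Of 6 translation elongation genes, 2 were called higher in gerbil and none higher in mouse. Eef1a1, which delivers aminoacyl-tRNA, had levels of 16323 in E23 and 13008 in E21, against 2915 in SEK and 5199 in PEK, and a corrected difference of 2.38 ± 0.55 (SE). Eef1g, a subunit of its exchange factor, had levels of 2202 in E23 and 1876 in E21, against 557 in SEK and 607 in PEK, and a difference of 2.16 ± 0.18. Both of these mRNAs are known to carry the same pyrimidine start as ribosomal protein mRNAs. The median over the 6 genes was -0.09, beside -0.02 over all genes.

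Of 23 translation initiation genes, 6 were called higher in gerbil and 3 higher in mouse, with a median of 0.67, and the mouse count is near the background of 14.7%. Eif2s3x, a subunit of the factor that brings the initiator tRNA, was at 2.47 ± 0.23 (SE), and Eif3m at 1.80 ± 0.26. Eif5b, which joins the subunits, was at -3.50 ± 0.10, and Eif6, which keeps the large subunit from joining too early, at -2.15 ± 0.50.

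Of 31 ribosome biogenesis genes, 4 were called higher in gerbil and 3 higher in mouse, with a median of 0.14, and neither count exceeds its background of 13.4% or 14.7%. Tsr1, a maturation factor of the small subunit, had levels of 102 in E23 and 112 in E21, against 13.9 in SEK and 15.8 in PEK. Gar1, a component of the particles that make pseudouridine, had levels of 23.5 in E23 and 22.1 in E21, against 432 in SEK and 276 in PEK. Nop58 was called higher in mouse with exon length, at -2.37 ± 0.37 (SE), but was at 0.19 with principal transcript length, so it turns with the treatment. Npm3 was at 1.94 ± 0.14.

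Of 13 genes that control ribosome production, none was called higher in gerbil and 3 were called higher in mouse (background 13.4% and 14.7%), with a median of -0.30. Without length correction 4 were called higher in gerbil (29.7%) and 2 higher in mouse (11.9%), with a median of 0.47, and with coding length none and 1 were (16.3% each). The direction of this list thus turned with the treatment. Myc, which drives transcription of ribosomal genes, had levels of 36.0 in E23 and 31.3 in E21, against 151 in SEK and 189 in PEK. Eif4ebp1, an inhibitor of cap-dependent translation that mTOR switches off, had levels of 40.6 in E23 and 53.5 in E21, against 339 in SEK and 200 in PEK. Both were lower in gerbil by more than 2-fold with and without correction, while the third, Rps6kb1, was at -1.52 with exon length and 0.47 without. Fau, whose product is cleaved to ubiquitin-like and small-subunit proteins, was the gene called among 3 ribosome-associated ones outside the symbol rule, at 3844 in E23 and 3185 in E21, against 1836 in SEK and 2311 in PEK.

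The promoters of 22 members, in 25 windows of 250 bases before to 50 after the start, were taken from RefSeq (GRCm38.p6) and searched on both strands. The letters CTTTCC, a short pyrimidine run, were in 13 of 25 windows (52%), against 26.6% of all 32851 windows. The letters CCGGAAG, an ETS-type core, were in 5 of 25 (20%), against 8.86%, and AAGATGG, a YY1-type core, in 2 of 25 (8%), against 6.34%. A match is a description of the letters only. As an example of a pyrimidine-rich start, 90 bases around the annotated start of Rpl15, whose human counterpart is mutated in Diamond-Blackfan anaemia, are shown from 60 before to 30 after it (chr14:18270957-18271046, minus strand), with CTTTCC in capitals.
Rpl15: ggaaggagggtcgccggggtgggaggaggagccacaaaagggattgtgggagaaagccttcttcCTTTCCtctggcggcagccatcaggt
Rpl15 had levels of 2905 in E23 and 2686 in E21, against 1094 in SEK and 1353 in PEK, with a difference of 1.21 ± 0.24 (SE) with exon length and 1.20 ± 0.16 without correction.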

How the data were processed

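The mouse values are FPKM per locus and the gerbil values TPM per gene, as deposited by the authors in 2 tables that were normalized separately. Tools listed in the submitters' processing notes are STAR 2.7.1a, RSEM 1.3.1 and cutadapt 2.8, with no roles given; no gerbil build is stated. Not used were 4 other columns of sample values for gerbil, and depth was not analysed. Genes were matched by symbol, ignoring case, and each library was rescaled over the matched genes. The minimum mean level was 1, and a GENCODE M21 exon length was required, which kept 10161 genes. In each library the running median along length, in 40 bins, was subtracted. No count model was used. The procedure was tested on simulated data. Alternatives are given at the end. The members and lists were chosen with earlier results of these data known. Named genes are the most abundant members, those called, those apart from the family, those with a role of their own, and 2 per direction from other translation lists; some members are counted but not reported by name here. Work was done in Python 3.11.15 with pandas 2.3.3, numpy 2.4.6 and scipy 1.17.1.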

Additional observations from a re-analysis of the deposited data

How the results depend on the processing

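The number of members called higher in gerbil was 16; it was 4 without length correction, 10 with no filter on low values and 0 on the values as deposited, and 16 to 25 when each library was left out in turn. The number called higher in mouse was 0; it was 2 without length correction, 1 with a pseudocount of 0.1, 1 with no filter and 10 as deposited, and 0 to 2 with a library left out. The median difference of 1.64 became 0.88 without length correction, 1.27 with coding length, 1.06 with no filter and -1.01 as deposited, beside -0.92 over all genes, and ran from 1.28 to 2.06 with a library left out. The number of members apart from the family was 4, and 7 with no filter, and both counts hold Rpl39l, which was at 0 in gerbil. The members' share of the matched total was 3.24 percentage points higher in gerbil. On the deposited totals it was 1.15 points higher, which is the gerbil share itself, as the mouse share was 4.89e-05%. In mouse those totals are dominated by a few loci, and in gerbil most of them lies outside the matched genes. With a library left out, the difference in the matched share ran from 2.04 (without SEK) to 4.44 (without PEK), and it was 2.06 without E23. The median of E23 minus E21 was 0.35 and became 0.18 as deposited. As deposited, with neither a common total nor a length correction, the sign turned among the named genes for Rpl10 (-1.61), Rpl22 (-0.85), Rpl23 (-0.59), Rpl3 (-0.10), Rpl32 (-2.16), Rpl36 (-3.17), Rpl37a (-1.40), Rpl5 (-0.092), Rpl6 (-0.54), Rpl7a (-0.90), Rpl8 (-1.03), Rplp0 (-0.997), Rps20 (-0.61), Rps3 (-0.60) and Rps4x (-0.51). Principal transcript length, and leaving Cmss1 and Lars2, 2 loci of very high mouse FPKM, out of the rescaling, were added after the data had been seen. No paired analysis was possible because the columns carry no replicate numbers and no test was run. Library depth was not analysed here, so no counting error is given.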
